A study of Mus musculus with 18 samples.

Results

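These data describe how mouse macrophages without intact TLR4 changed their gene expression after 24 h with GM, the disaccharide GlcNAc-MurNAc that repeats along the sugar backbone of bacterial peptidoglycan. The cells were bone marrow-derived macrophages (BMDMs), grown from bone marrow of TLR4-knockout C57BL/6J mice with the supernatant of L929 fibroblasts, which supplies M-CSF. On day 7 they received GM or water in serum-free IMDM. The comparison rests on 6 of the 18 libraries of the series, chosen by genotype and treatment: 3 knockout libraries with GM and 3 knockout libraries with water. Further tested contrasts used the 3 knockout libraries with MDP, which the labels spell MurNAc-D-Ala-L-Gln, and the 3 GM and 3 water libraries of wild-type C57BL/6J macrophages. The labels do not state the doses, which exons the knockout lacks, or whether the 3 biological replicates of a group came from separate animals or cultures. The p-values therefore speak for the spread among the 3 libraries of each group, part of which may be technical.

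TLR4 is the surface receptor through which macrophages sense bacterial lipopolysaccharide, with MD-2 (Ly96) and CD14 as partners, and it signals to NF-kB through MyD88 and to interferon genes through TRIF. Peptidoglycan fragments are otherwise sensed inside the cell by NOD1 and NOD2, which signal through RIPK2. Macrophages also keep a separate defence against oxidants and electrophiles, run by the transcription factor NRF2: its inhibitor KEAP1 is modified by electrophiles, NRF2 accumulates, and genes for glutathione synthesis, thioredoxin and quinone reduction are transcribed. The series sets GM against water to ask how far the macrophage response to GM passes through TLR4, so the knockout cells show what GM changed without it.

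The 6 libraries held 15532973 to 21128507 counts each, and mitochondrial genes took 3.13% to 3.43% of them. Over the 1000 genes with the largest variance, the leading principal component (29.01% of the variance) separated the 3 GM libraries (6.45, 14.15 and 10.21) from the 3 water libraries (-12.81, -7.453 and -10.55). Tlr4 (ENSMUSG00000039005) gave 39.3, 38.8 and 36.3 CPM (counts scaled to library size, here over the 12 GM and water libraries) in knockout cells with GM and 51.7, 52.6 and 46.1 CPM in knockout cells with water, against 191, 178 and 184 CPM in wild-type cells with GM and 154, 148 and 228 CPM in wild-type cells with water. The knockout label thus went with a lower but not absent Tlr4 transcript in all 6 libraries. Some macrophage genes were high in both groups: Csf1r, the M-CSF receptor, gave 1216, 1221 and 1145 CPM with GM, against 1195, 1146 and 1215 CPM in water. Others were low, such as the complement gene C1qa at 10.9, 10.2 and 7.8 CPM with GM, against 13.2, 14.0 and 11.4 CPM in water. Of the 20 macrophage identity genes, 3 rose and 3 fell with GM. Knockout GM replicate 1 stood apart from the other 2 GM libraries in interferon-response genes, and wild-type water replicate 3 stood apart from the other 2 wild-type water libraries, and counts of the lists that rest on them are given with and without them.

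Without intact TLR4, GM changed 1217 of the 14139 genes tested, which is 8.61% of them. Of these, 587 rose (4.15%) and 630 fell (4.46%), by edgeR's quasi-likelihood test with Benjamini-Hochberg adjusted p below 0.05. The changes were small. The median size among the genes called was 0.30 on the log2 scale, 1027 of the 1217 (84.39%) changed by less than 1.5-fold, and 24 rose and 28 fell by 2-fold or more (52 genes, 0.368% of those tested). They rest on a tight spread between replicates, a biological coefficient of variation of 5.88% across the 6 libraries. In 1192 of the 1217 genes the 3 GM values did not overlap the 3 water values, as was also the case in 24.6% of all genes tested. Genes that fell were longer (median 4984 bases) than genes that rose (median 3572 bases), against a median of 3975 bases over all genes tested.

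The number of genes called moved with the libraries and the model in the fit. A limma-voom fit of all 18 libraries with a spread for each group called 569 genes (248 higher, 321 lower), 512 of them also among the 1217. An edgeR fit of all 18 libraries under 1 spread, where the coefficient of variation was 18.4%, called 3 genes, all lower: the chemokine gene Ccl6, the matricellular gene Ccn3 and the noncoding RNA ENSMUSG00000121059, with 749 genes at an unadjusted p below 0.05. The 6 wild-type libraries with GM or water spread more widely, at 31.2%. Counts from the limma-voom fit are given below as counts with a spread per group. Of the 157 named genes, 70 lost their call in that fit, and not all of them are marked where they are named. List counts in GM against water stand against 4.15% rising and 4.46% falling over all genes tested. Counts of genes without overlap stand against 24.6%.

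**Figure D1:**
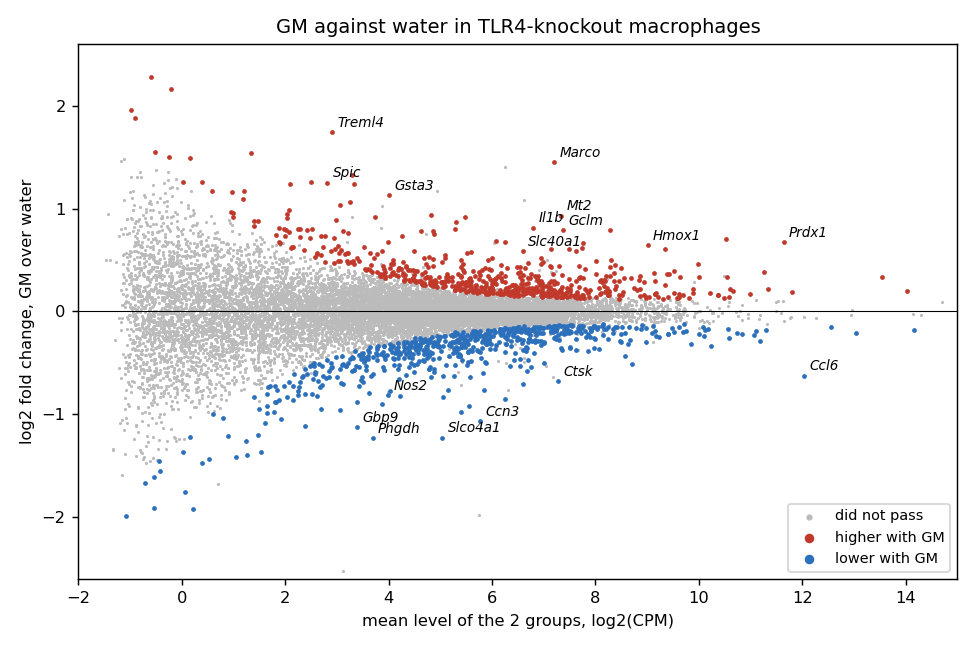
Log2 fold change of GM over water in TLR4-knockout macrophages (vertical axis) against mean log2 CPM (horizontal axis), 1 point per gene tested. Coloured points are the 587 genes that rose and the 630 that fell; most of them lie within 1.5-fold of 0, and 1 gene lies outside the vertical range.

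Among the response lists, NRF2 and glutathione genes had the largest share of members that rose. Of 32 list members, all tested, 23 rose and 0 fell, against 4.15% rising among all genes. The median of the list was 0.34 on the log2 scale against 0.00 over all genes. In 26 of the 32 members the GM and water libraries did not overlap, against 24.6% of all genes tested. Leaving out 1 library at a time left 21 to 23 members that rose, and the fit with a spread per group called 6. The promoters of 3 members that rose are shown because they hold the sequence that NRF2 is known to bind, the antioxidant response element, here searched by its core TGACNNNGC and by the related TGACTCA on both strands. Each sequence is RefSeq's GRCm38.p6 window from 250 bases before to 50 bases after the gene start, 5' to 3' on the gene's strand, with matches in capitals; the 2 motifs can overlap.
Srxn1, chr2:152105274-152105573, plus strand: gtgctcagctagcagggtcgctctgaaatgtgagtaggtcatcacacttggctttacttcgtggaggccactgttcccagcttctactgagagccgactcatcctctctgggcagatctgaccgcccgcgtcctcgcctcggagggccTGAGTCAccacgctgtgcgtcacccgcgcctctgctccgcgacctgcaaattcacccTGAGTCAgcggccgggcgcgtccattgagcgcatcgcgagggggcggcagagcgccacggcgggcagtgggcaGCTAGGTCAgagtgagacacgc
Prdx1, chr4:116685349-116685648, plus strand: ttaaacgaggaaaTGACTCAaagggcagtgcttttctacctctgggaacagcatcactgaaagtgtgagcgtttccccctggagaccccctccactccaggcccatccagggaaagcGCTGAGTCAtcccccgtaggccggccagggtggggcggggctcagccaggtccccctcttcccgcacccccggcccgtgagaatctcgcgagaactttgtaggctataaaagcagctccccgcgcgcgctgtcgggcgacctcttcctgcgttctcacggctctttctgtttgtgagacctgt
Gclm, chr3:122245307-122245606, plus strand: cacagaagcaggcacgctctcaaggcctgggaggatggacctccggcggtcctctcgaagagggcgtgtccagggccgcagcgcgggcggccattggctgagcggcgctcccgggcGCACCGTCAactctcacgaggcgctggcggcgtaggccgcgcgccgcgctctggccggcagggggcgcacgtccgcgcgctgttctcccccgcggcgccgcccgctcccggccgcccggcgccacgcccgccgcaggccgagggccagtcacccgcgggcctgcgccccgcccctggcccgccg
The Srxn1 and Prdx1 windows each held 1 match to the core and 2 to TGACTCA, and the Gclm window held 1 match to the core and 0 to TGACTCA. Of the 26 list members with a window in the table, 8 (30.8%) held the core, against 14% of 27025 genes, and 4 (15.4%) held TGACTCA, against 5.95%. Among the 17 members that rose and had a window, 6 (35.3%) held the core and 4 (23.5%) held TGACTCA. The windows of Nqo1, Slc7a11, Blvrb and Sqstm1, which also rose, held 0 matches to either motif. A match describes these letters only and no binding was measured here.

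Glutathione synthesis starts with the ligase whose modifier subunit is Gclm (ENSMUSG00000028124, GRCm39 chromosome 3, 122039206 to 122064381, plus strand). Gclm had 203, 219 and 208 CPM with GM, against 119, 119 and 126 CPM in water (log2 fold change 0.79, SE 0.04, edgeR adjusted p = 5.3e-15). Its catalytic partner Gclc rose less (log2 0.34, edgeR adjusted p = 0.0029), as did glutathione reductase, Gsr (log2 0.52, edgeR adjusted p = 2.7e-10). Slc7a11, which imports the cystine that glutathione is made from, had 726, 818 and 798 CPM with GM, against 482, 516 and 536 CPM in water (log2 0.61, edgeR adjusted p = 1.1e-10). Among the glutathione transferases Gsta3 changed most, with 20.5, 21.2 and 24.4 CPM with GM, against 8.3, 12.1 and 9.67 CPM in water (log2 fold change 1.13, SE 0.12, edgeR adjusted p = 2.6e-08), while Gstm1 rose by 0.30 and Mgst2 by 0.26 on the log2 scale. Abcc1, which exports glutathione conjugates, rose by 0.59 on the log2 scale (edgeR adjusted p = 4.6e-11). In every gene named in this paragraph the 3 GM libraries lay above the 3 water libraries.

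The thioredoxin branch rose with it. Prdx1 (ENSMUSG00000028691, GRCm39 chromosome 4, 116542741 to 116558019, plus strand), a peroxide-reducing peroxiredoxin and one of the most abundant members, had 3712, 4190 and 3846 CPM with GM, against 2465, 2447 and 2460 CPM in water (log2 fold change 0.67, SE 0.04, edgeR adjusted p = 1.2e-13). Srxn1, the sulfiredoxin that restores over-oxidised peroxiredoxins, had 249.8, 272 and 251 CPM with GM, against 164, 167 and 173 CPM in water (log2 0.62, edgeR adjusted p = 1.8e-12). Txnrd1, thioredoxin reductase, had 354, 401 and 393 CPM with GM, against 265, 290.5 and 282 CPM in water (log2 0.45, edgeR adjusted p = 1.9e-08), and thioredoxin itself, Txn1, rose by 0.31 on the log2 scale (edgeR adjusted p = 8.3e-07). Nqo1 (ENSMUSG00000003849, GRCm39 chromosome 8, 108114857 to 108129838, minus strand), the quinone reductase often read as a marker of NRF2 activity, had 47.8, 50.5 and 54.9 CPM with GM, against 28.6, 27.9 and 27.1 CPM in water (log2 fold change 0.87, SE 0.07, edgeR adjusted p = 4.4e-11). Per gene length the order was wide: by the authors' FPKM, Prdx1 averaged 1228 with GM and 772 in water, while Nqo1 averaged 31.4 with GM and 17.2 in water.

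Haem breakdown joined the same group. Hmox1 (ENSMUSG00000005413, GRCm39 chromosome 8, 75820249 to 75827217, plus strand), haem oxygenase 1, had 615, 632 and 638 CPM with GM, against 390.5, 398 and 418 CPM in water (log2 fold change 0.64, SE 0.04, edgeR adjusted p = 1.0e-13). Blvrb, a biliverdin reductase that acts after it, had 218, 223 and 212 CPM with GM, against 145, 143 and 142 CPM in water (log2 0.60, edgeR adjusted p = 1.4e-12). Slc48a1, which moves haem out of the phagolysosome, had 395, 429.6 and 412 CPM with GM, against 306, 309.9 and 307 CPM in water (log2 0.42, edgeR adjusted p = 2.7e-09). Sqstm1, the p62 autophagy receptor that also binds KEAP1, rose by 0.34 on the log2 scale (edgeR adjusted p = 5.1e-07). The transcripts of the regulators themselves stayed within narrow limits: Nfe2l2, which encodes NRF2, differed by -0.02 (edgeR adjusted p = 0.87) and Keap1 by -0.01 (edgeR adjusted p = 0.95) on the log2 scale. The glutathione peroxidases Gpx1 (-0.00) and Gpx4 (0.09) did not pass the test either. With a spread per group, Prdx1 (limma-voom adjusted p = 0.02), Blvrb (0.0068), Slc48a1 (0.0024) and Gsta3 (0.021) passed, while Hmox1 (0.054), Nqo1 (0.067), Srxn1 (0.075), Gclm (0.085), Txnrd1 (0.13) and Slc7a11 (0.2) did not.

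**Figure D2:**
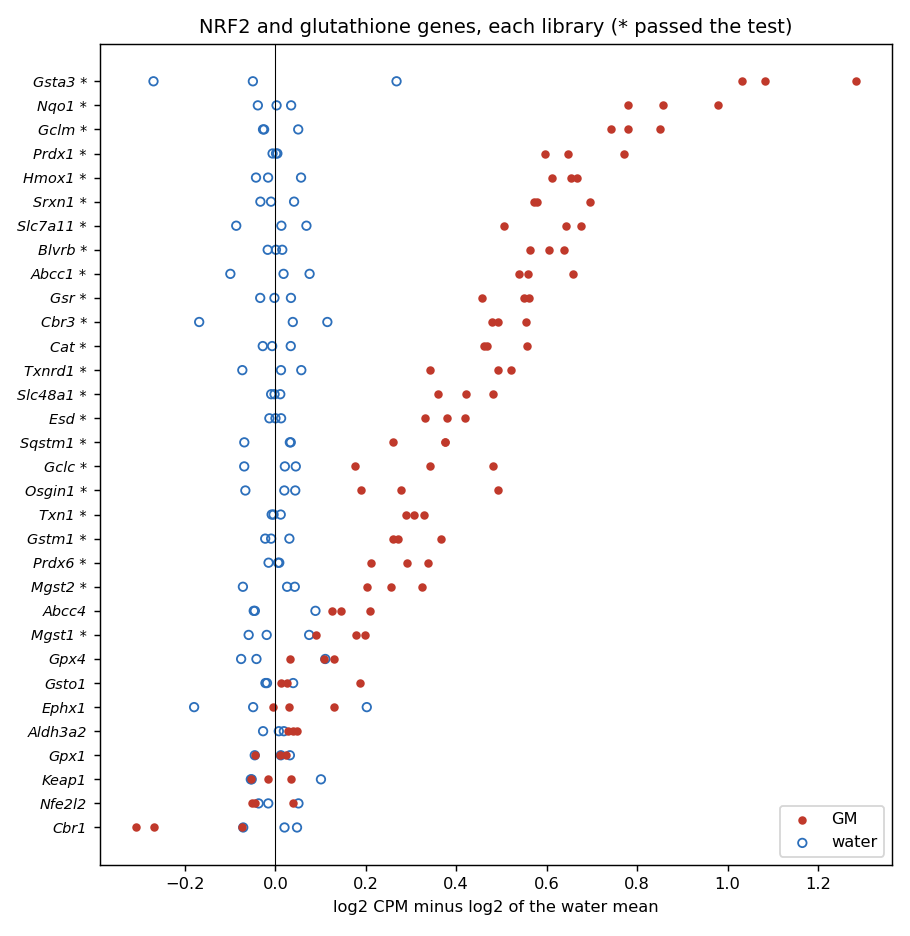
Each of the 32 NRF2 and glutathione genes (rows) in the 6 knockout libraries, as log2 CPM minus the log2 of the mean in water (horizontal axis); filled red points are GM, open blue points are water, and an asterisk marks the 23 genes that passed the test. In 26 of the 32 rows the red points lie clear of the blue ones.

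NADPH feeds both glutathione and thioredoxin reduction, and 5 of 11 tested genes of its supply rose while 0 fell (median 0.12 on the log2 scale, 3 that rose with a spread per group). Pgd, a dehydrogenase of the pentose phosphate pathway, had 789, 880.1 and 832 CPM with GM, against 638, 625 and 648 CPM in water (log2 fold change 0.39, SE 0.04, edgeR adjusted p = 2.8e-08). Transaldolase, Taldo1 (0.32), transketolase, Tkt (0.18), Nadk, which makes NADP from NAD (0.22), and malic enzyme, Me1 (0.49), also rose on the log2 scale (largest edgeR adjusted p = 0.025). G6pdx, the entry enzyme of the pathway, did not pass (log2 0.10, 95% interval 0.01 to 0.18, edgeR adjusted p = 0.16).

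In the list of iron and haem handling, 8 of 18 tested members of 22 rose and 1 fell, against 4.15% and 4.46% of all genes. The fit with a spread per group called 3 that rose and 0 that fell. The list holds haem genes named above, Slc48a1 among them, so its count is not separate from the haem results. Slc40a1 (ENSMUSG00000025993, GRCm39 chromosome 1, 45947228 to 45965683, minus strand) encodes ferroportin, the exporter that returns iron to the blood. It had 116, 114 and 119 CPM with GM, against 80.1, 79.4 and 72.6 CPM in water (log2 fold change 0.59, SE 0.05, edgeR adjusted p = 1.1e-10), although not with a spread per group (limma-voom adjusted p = 0.063). The ferritin subunits rose by less, Ftl1 by 0.34 and Fth1 by 0.19 on the log2 scale, both without overlap between the groups. Tfrc, the transferrin receptor that brings iron in, rose by 0.37 on the log2 scale (edgeR adjusted p = 6.2e-07), so genes of uptake, storage and export rose together. Slc11a1, the phagosomal metal transporter, had 286, 326 and 295 CPM with GM, against 200.1, 220.1 and 226 CPM in water (log2 0.49, edgeR adjusted p = 7.4e-07). Cp, the ferroxidase ceruloplasmin, was the member that fell (log2 -0.63, edgeR adjusted p = 0.023); the call was lost without water replicate 2, without water replicate 3 and without GM replicate 3. Spic, the transcription factor that marks haem-recycling macrophages, rose beside them, at 9.59, 9.18 and 10.9 CPM with GM, against 3.93, 4.88 and 3.54 CPM in water (log2 fold change 1.25, SE 0.16, edgeR adjusted p = 6.4e-07).

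Both metallothioneins, small proteins that bind zinc and copper, were among the genes with the smallest p. Mt2 (ENSMUSG00000031762, GRCm39 chromosome 8, 94899292 to 94900196, plus strand) had 224, 199.5 and 210.0 CPM with GM, against 106, 116 and 111 CPM in water (log2 fold change 0.93, SE 0.05, edgeR adjusted p = 9.9e-16). Mt1, its neighbour on chromosome 8, had 405, 386 and 399.8 CPM with GM, against 237, 231 and 219.6 CPM in water (log2 fold change 0.79, SE 0.04, edgeR adjusted p = 1.3e-15). Slc30a1, which exports zinc from the cell, rose by 0.32 on the log2 scale (edgeR adjusted p = 0.00043) and the importer Slc39a8 fell by 0.61 on the log2 scale (edgeR adjusted p = 0.016, a call lost without water replicate 2 and without GM replicate 2). Mtf1, the zinc-sensing factor that controls these genes, differed by 0.01 (edgeR adjusted p = 0.96). Of the 6 tested members of 7, 3 rose and 1 fell.

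The largest single rises lay largely outside these pathways. Treml4, a TREM-like receptor, had 10.5, 13.2 and 11.2 CPM with GM, against 2.99, 4.07 and 3.29 CPM in water and was 3.35-fold higher (log2 fold change 1.74, SE 0.16, edgeR adjusted p = 8.6e-10). Marco (ENSMUSG00000026390, GRCm39 chromosome 1, 120402267 to 120432753, minus strand), a scavenger receptor for bacteria and particles, had 209, 230.5 and 206 CPM with GM, against 64.7, 83.2 and 88.6 CPM in water (log2 fold change 1.45, SE 0.14, edgeR adjusted p = 0.0059). Ggt5, which cleaves glutathione conjugates outside the cell, had 13.7, 13.2 and 14.9 CPM with GM, against 6.48, 5.64 and 4.45 CPM in water (log2 1.33, edgeR adjusted p = 1.9e-08). Slc16a9, a monocarboxylate carrier family member (1.24), the axonemal dynein gene Dnah2 (1.06) and the chemokine gene Ppbp (1.04) followed on the log2 scale (largest edgeR adjusted p = 0.004). Afp, which encodes the fetal serum protein alpha-fetoprotein (log2 0.99, edgeR adjusted p = 0.0007), and the galactosyltransferase gene B4galt4 (log2 0.95, edgeR adjusted p = 0.0014) came next. Cstdc4 (log2 1.24, edgeR adjusted p = 3.4e-07) and Cstdc5 (log2 1.26, edgeR adjusted p = 0.01) also rose, but they are near-identical copies in the stefin A cluster and their separate values are uncertain. With a spread per group, Ppbp (limma-voom adjusted p = 0.63) and Afp (0.19) did not pass, and the others named here did.

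Among the genes that fell most, Phgdh, the first enzyme of serine synthesis, had 6.98, 7.33 and 8.8 CPM with GM, against 16.6, 21.4 and 16.3 CPM in water (log2 fold change -1.23, SE 0.13, edgeR adjusted p = 1.5e-08). Slco4a1, an organic anion transporter, had 16.9, 18.5 and 23.3 CPM with GM, against 45.7, 47.8 and 44.3 CPM in water (log2 fold change -1.23, SE 0.09, edgeR adjusted p = 1.9e-10). Ccn3, a matricellular growth regulator, had 35.4, 36.5 and 34.2 CPM with GM, against 90.5, 66.3 and 65 CPM in water (log2 fold change -1.07, SE 0.15, edgeR adjusted p = 0.013). Its call was lost without each of the 3 GM libraries in turn (largest edgeR adjusted p = 0.085) but was kept in the fit of all 18 libraries. The platelet-derived growth factor gene Pdgfc (-1.12) and the guanylate-binding proteins Gbp9 (-1.12) and Gbp4 (-1.05) also fell on the log2 scale (largest edgeR adjusted p = 0.00062). So did the Fc receptor-like gene Fcrls (-0.98), Tmem144 (-0.95), Lrrc14b (-0.88) and the focal adhesion gene Tns1 (-0.85), with a largest edgeR adjusted p = 0.0027. Of these, Fcrls did not pass with a spread per group (limma-voom adjusted p = 0.071). The mitochondrial transcript mt-Co2 had 33.8, 34.5 and 29.3 CPM with GM, against 60.1, 54.7 and 70.6 CPM in water, while mt-Co1, of the same complex and genome, had 20570, 20250 and 18680 CPM with GM, against 20770, 20220 and 20080 CPM in water. The low level of mt-Co2 beside mt-Co1 makes its count uncertain.

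Tlr4 itself fell to 41.2, 40.7 and 38.1 CPM with GM, against 54.1, 55 and 48 CPM in water (log2 fold change -0.39, SE 0.06, edgeR adjusted p = 5.8e-05). The noncoding RNA ENSMUSG00000121059 (GRCm39 chromosome 4, 66762713 to 66764269, plus strand) lies inside the Tlr4 gene (66745821 to 66848521) on the same strand. It had 0.479, 0.637 and 0.328 CPM with GM, against 1.72, 1.67 and 2.13 CPM in water (log2 fold change -1.93, SE 0.39, edgeR adjusted p = 0.00099), a larger relative fall than that of Tlr4 at a far lower level. How reads from overlapping genes were assigned is not given in the sources used here, so the 2 counts may share reads. Of the 25 Toll-like receptor and adaptor genes, 2 rose (8%) and 5 fell (20%), against 4.15% and 4.46% of all genes. Cd14, the lipopolysaccharide co-receptor, rose to 380.2, 353 and 378 CPM with GM, against 274, 283 and 300.4 CPM in water (log2 fold change 0.37, SE 0.04, edgeR adjusted p = 1.1e-07). Irak3, a brake on Toll-like receptor signalling, rose by 0.21 on the log2 scale (edgeR adjusted p = 0.015). Besides Tlr4, the genes that fell were the endosomal receptors Tlr7 (-0.25) and Tlr9 (-0.24), the TLR4-like receptor Cd180 (-0.16) and its partner Ly86 (-0.57), on the log2 scale (largest edgeR adjusted p = 0.03). Tlr2 (log2 0.01, 95% interval -0.07 to 0.09, edgeR adjusted p = 0.94), Ly96 (log2 -0.09, 95% interval -0.35 to 0.16, edgeR adjusted p = 0.76) and Myd88 (log2 -0.05, 95% interval -0.18 to 0.07, edgeR adjusted p = 0.71) did not pass, and their groups overlapped. With a spread per group, 1 member rose and 2 fell.

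Of 14 tested genes that sense or handle peptidoglycan, from a list of 16, 0 rose and 2 fell (1 with a spread per group), against 4.46% falling among all genes. Nod1, the intracellular receptor for diaminopimelic acid-type fragments, had 16.5, 15.3 and 16.1 CPM with GM, against 19.7, 22 and 21.7 CPM in water (log2 fold change -0.40, SE 0.09, edgeR adjusted p = 0.0044). Slc46a3, a lysosomal solute carrier, fell by 0.52 on the log2 scale (edgeR adjusted p = 0.00014). Nod2, the sensor of muramyl dipeptide (log2 -0.04, 95% interval -0.23 to 0.16, edgeR adjusted p = 0.89), and its kinase Ripk2 (log2 0.07, 95% interval -0.11 to 0.25, edgeR adjusted p = 0.73) did not pass. In 25 tested genes of GlcNAc and hexosamine use, 3 rose (12%) and 1 fell (4%), against 4.15% and 4.46% of all genes. With a spread per group 1 rose and 1 fell. Without water replicate 1, water replicate 3 or GM replicate 2, 1 rose. Nagk, the kinase that takes GlcNAc and MurNAc into metabolism, had 71.7, 80.3 and 82 CPM with GM, against 72.4, 67.2 and 68.5 CPM in water, and its groups overlapped (log2 0.17, edgeR adjusted p = 0.048; not passed in 4 of the 6 fits that left out 1 library). Chil1, a chitinase-like secreted lectin, rose by 0.80 on the log2 scale (edgeR adjusted p = 0.0075).

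Of 28 NF-kB target and feedback genes 12 rose by small amounts and 0 fell, with a median of 0.19 on the log2 scale (9 to 11 without 1 library, 6 with a spread per group). Nfkbia, which encodes the inhibitor IkBa, had 140.3, 133 and 137 CPM with GM, against 105, 114 and 116 CPM in water (log2 fold change 0.29, SE 0.05, edgeR adjusted p = 2.7e-05). Sod2, the mitochondrial superoxide dismutase, had 357, 368 and 345 CPM with GM, against 236, 279 and 277 CPM in water (log2 0.43, edgeR adjusted p = 2.4e-05). Birc3, an inhibitor of apoptosis (0.30), the TNF-induced gene Tnfaip2 (0.33) and the deubiquitinase gene Tnfaip3 (0.27) rose as well on the log2 scale (largest edgeR adjusted p = 0.00024). The subunit genes Rela (-0.02) and Nfkb1 (-0.02) did not pass, whereas Relb (0.19) and Nfkb2 (0.19) rose on the log2 scale.

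Inflammatory cytokine genes did not move as a block: of 19 tested of 24, 3 rose and 1 fell (2 and 0 with a spread per group). Il1b (ENSMUSG00000027398, GRCm39 chromosome 2, 129206490 to 129213059, minus strand), which encodes interleukin-1 beta, had 149.9, 134 and 141 CPM with GM, against 77.5, 81.1 and 83.1 CPM in water (log2 fold change 0.81, SE 0.05, edgeR adjusted p = 3.5e-14). Il12b, the p40 subunit of interleukins 12 and 23, had 14.4, 18.1 and 20.3 CPM with GM, against 10.3, 12.1 and 13 CPM in water (log2 0.58, edgeR adjusted p = 0.0013; limma-voom adjusted p = 0.36). Tnf had 78.3, 73.9 and 81.6 CPM with GM, against 53.8, 67.8 and 63 CPM in water (log2 0.34, edgeR adjusted p = 0.0024). Il6 had 3.78, 3.19 and 3.37 CPM with GM, against 3.88, 3.11 and 3.48 CPM in water (log2 -0.02, 95% interval -0.44 to 0.41, edgeR adjusted p = 0.98), and its groups overlapped. Csf1, which encodes M-CSF, fell by 0.27 on the log2 scale (edgeR adjusted p = 0.00011). Of 20 inflammasome genes, 5 rose and 0 fell. Mefv, which encodes pyrin, had 28.9, 26.2 and 25.8 CPM with GM, against 17.2, 18.3 and 18.5 CPM in water (log2 fold change 0.58, SE 0.09, edgeR adjusted p = 1.3e-05). The inflammasome receptor gene Naip2 (0.32) and Txnip, a thioredoxin-binding protein (0.30), rose on the log2 scale too (largest edgeR adjusted p = 3.2e-06). Nlrp3 differed by 0.10 and Casp1 by -0.08 on the log2 scale, without passing.

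Chemokines split: of 19 tested of 25, 5 rose and 6 fell. Ccl6 had 3261, 3534 and 3060 CPM with GM, against 5329, 4929 and 4951 CPM in water (log2 fold change -0.63, SE 0.05, edgeR adjusted p = 1.4e-10), and it was the one chemokine that fell in the fit with a spread per group (limma-voom adjusted p = 6.4e-06). The monocyte attractants Ccl2 (-0.60) and Ccl7 (-0.79), the interferon-induced Cxcl10 (-0.61), Ccl17 (-0.59) and Ccl9 (-0.22) also fell on the log2 scale (largest edgeR adjusted p = 0.038). Besides Ppbp, the genes that rose were Pf4 (0.34), Cxcl3 (0.31), Ccl5 (0.27) and Cxcl16 (0.20) on the log2 scale. Without water replicate 1, water replicate 3 or GM replicate 3, 3 chemokines rose in place of 5. Of 24 antimicrobial genes 9 rose and 2 fell, with 5 that rose and 1 that fell under a spread per group. Nos2, the inducible nitric oxide synthase, had 12.2, 12.6 and 10.01 CPM with GM, against 20.8, 19.1 and 21.08 CPM in water (log2 fold change -0.81, SE 0.11, edgeR adjusted p = 1.5e-06). Clec4n, which encodes the fungal and mycobacterial receptor Dectin-2, had 2728, 2826 and 2777 CPM with GM, against 2156, 2105 and 2131 CPM in water (log2 0.38, edgeR adjusted p = 7.9e-09). Its relative Clec4d rose too (log2 0.36, edgeR adjusted p = 4.9e-08), but did not pass with a spread per group (limma-voom adjusted p = 0.37). The oxidase subunits Cybb (0.21) and Ncf4 (0.24), the itaconate-forming enzyme Acod1 (0.17) and arginase 2, Arg2 (0.30), rose on the log2 scale (largest edgeR adjusted p = 0.023).

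Interferon-response genes were lower in 2 of the 3 GM libraries. Of 42 tested of 43, 9 fell and 0 rose (median -0.25), and 41 of the 42 had a negative log2 fold change. The median level of the list, relative to the mean of the 6 libraries on the log2 scale, was 0.159 in GM replicate 1, -0.267 in GM replicate 2 and -0.307 in GM replicate 3, against 0.118, 0.036 and 0.24 in the 3 water libraries. GM replicate 1 thus lay among the water libraries, and without it 33 members fell. Without water replicate 3 the count was 4, without GM replicate 3 it was 5, with no low-count filter 16 and with a spread per group 5. Gbp7, an interferon-induced GTPase, had 30.1, 24 and 25.1 CPM with GM, against 50.2, 41.5 and 42.7 CPM in water (log2 -0.76, edgeR adjusted p = 9.6e-07). Usp18, which restrains interferon receptor signalling, had 50.2, 41 and 45.5 CPM with GM, against 64.5, 52.8 and 60.5 CPM in water (log2 -0.38, edgeR adjusted p = 0.0033). Gbp3 (log2 -0.54, edgeR adjusted p = 0.0014) and the GTPase gene Ifi47 (log2 -0.47, edgeR adjusted p = 0.0033) fell too. In Gbp7 and Usp18 the groups did not overlap, although GM replicate 1 was the highest of the GM libraries.

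Genes of cell division fell together. Of 36 mitosis and G2/M genes, all tested, 28 fell and 0 rose, against 4.46% falling among all genes. The median was -0.34 on the log2 scale and all 36 fold changes were negative. In 33 the groups did not overlap, against 24.6% of all genes tested. Between 20 and 31 members fell when 1 library was left out, and 12 with a spread per group. Mki67 (ENSMUSG00000031004, GRCm39 chromosome 7, 135291513 to 135318090, minus strand), which encodes the proliferation marker Ki-67, had 229, 222 and 211 CPM with GM, against 292, 276 and 278 CPM in water (log2 fold change -0.35, SE 0.04, edgeR adjusted p = 2.7e-07). Cenpe, a kinetochore motor, had 39.1, 39.5 and 34.5 CPM with GM, against 53.8, 55 and 53.8 CPM in water (log2 fold change -0.53, SE 0.06, edgeR adjusted p = 4.1e-07). Tpx2, a spindle assembly factor, had 36.7, 34.7 and 36.1 CPM with GM, against 51.3, 48 and 49.6 CPM in water (log2 -0.47, edgeR adjusted p = 2.2e-06). Top2a, the mitotic topoisomerase, had 163, 161 and 157 CPM with GM, against 209, 206 and 195 CPM in water (log2 -0.34, edgeR adjusted p = 4.5e-07). The kinase genes Plk1 (-0.38), Aurkb (-0.39) and Cdk1 (-0.28), cyclin B1, Ccnb1 (-0.44), survivin, Birc5 (-0.51), and the factor Foxm1 (-0.38), which drives this program, fell as well on the log2 scale. In bulk RNA, fewer dividing cells and less of these transcripts per dividing cell cannot be told apart.

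The Mki67 promoter is shown as the example of the elements known to time this program, the cell cycle homology region TTTGAA and the CCAAT box. Matches on either strand are in capitals, in RefSeq's GRCm38.p6 window of 250 bases before to 50 bases after the gene start (chr7:135716330-135716629, minus strand), read 5' to 3' on the gene's strand.
Mki67: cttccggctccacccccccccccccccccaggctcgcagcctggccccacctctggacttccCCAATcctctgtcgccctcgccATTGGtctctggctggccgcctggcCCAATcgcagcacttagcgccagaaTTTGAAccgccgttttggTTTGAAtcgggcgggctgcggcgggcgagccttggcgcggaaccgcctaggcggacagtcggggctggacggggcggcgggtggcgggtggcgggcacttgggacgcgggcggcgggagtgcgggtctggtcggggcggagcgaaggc
It held 2 matches to TTTGAA and 3 to CCAAT. Among the 30 list members with a window, 23 (76.7%) held TTTGAA, against 20.2% of 27025 genes, and 24 (80%) held CCAAT, against 41.1%. Among the 22 windows of members that fell, each motif stood in 16 (72.7%). The Cenpe window held 0 matches to TTTGAA and 1 to CCAAT.

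DNA replication genes moved the same way by less: 11 of 36 fell and 0 rose, with a median of -0.20, 35 negative fold changes, 7 to 10 that fell without 1 library, and 1 with a spread per group. The ribonucleotide reductase subunit Rrm1 had 88.9, 90.6 and 85.4 CPM with GM, against 118, 110.0 and 109 CPM in water (log2 -0.35, edgeR adjusted p = 2.7e-06). Its partner Rrm2 (-0.30), Uhrf1, which guides maintenance methylation (-0.37), and Chaf1a, a histone chaperone subunit (-0.33), fell on the log2 scale (largest edgeR adjusted p = 0.0025). The E2F cores TTCCCGC and TTTGGCG stood in 13 (43.3%) and 9 (30%) of the 30 windows found, against 5.29% and 1.77% of all genes. Among the 9 windows of members that fell they stood in 5 (55.6%) and 1 (11.1%). Among 23 genes of p53 and cell cycle arrest, 2 rose and 1 fell, each with calls that were lost without 1 library, and 0 passed with a spread per group. They were the kinase inhibitor Cdkn2b (log2 0.66, edgeR adjusted p = 0.049), the kinase Plk3 (log2 0.44, edgeR adjusted p = 0.01) and the inhibitor Cdkn2c (log2 -0.32, edgeR adjusted p = 0.033). Cdkn1a, the p21 inhibitor that p53 induces, did not pass (log2 -0.04, 95% interval -0.13 to 0.04, edgeR adjusted p = 0.61).

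**Figure D3:**
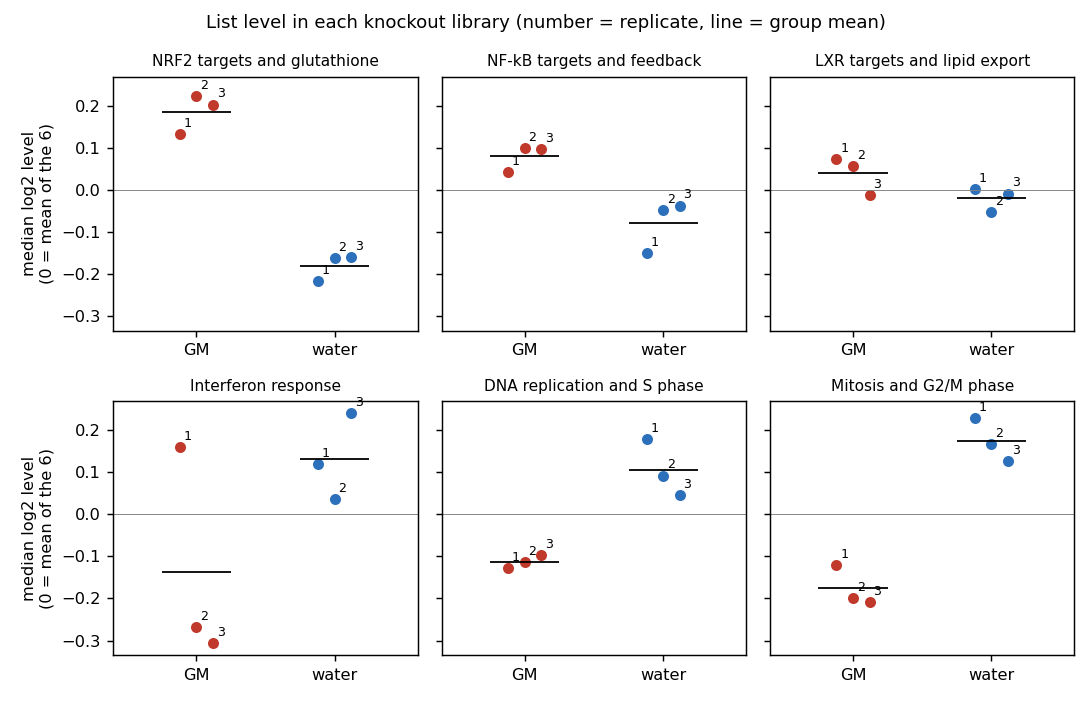
Median log2 level of 6 gene lists in each knockout library, relative to the mean of the 6 libraries (vertical axis), with GM left and water right in each panel. The NRF2 and NF-kB lists are higher and the mitosis list is lower in all 3 GM libraries, while in the interferon list GM replicate 1 lies at 0.159, among the water libraries.

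Lipid genes showed a modest rise on the fatty acid side. Of 17 fatty acid synthesis genes, 7 rose and 1 fell, with 2 that rose under a spread per group. Srebf1, which encodes the SREBP1 factor that drives them, had 156, 164 and 168 CPM with GM, against 136, 126 and 136 CPM in water (log2 fold change 0.29, SE 0.04, edgeR adjusted p = 2.2e-05). The desaturases Scd1 (0.41), Scd2 (0.33) and Fads2 (0.37) and the acetyl-CoA synthetase Acss2 (0.67) rose on the log2 scale (largest edgeR adjusted p = 2.4e-05). Of 17 tested targets of the sterol sensor LXR, 5 rose and 0 fell in edgeR. They were Mylip, Abca1, the phospholipid-remodelling enzyme Lpcat3 (log2 0.32, edgeR adjusted p = 4.0e-06), Srebf1 and Scd2. Mylip, whose product degrades the LDL receptor, had 106, 101 and 100.3 CPM with GM, against 75.2, 76.2 and 77.3 CPM in water (log2 0.43, edgeR adjusted p = 7.9e-08). The cholesterol exporter gene Abca1 had 775, 796 and 739.8 CPM with GM, against 599.6, 574 and 626 CPM in water (log2 0.36, edgeR adjusted p = 1.2e-07). Abcg1, another LXR-induced exporter, did not pass (log2 0.03, 95% interval -0.05 to 0.12, edgeR adjusted p = 0.74). With a spread per group Scd2 did not pass (limma-voom adjusted p = 0.35), and the other 4 did. In cholesterol synthesis 3 of 24 rose and 0 fell, among them Hmgcs1 (0.24) and Mvd (0.18) on the log2 scale, with a largest edgeR adjusted p = 0.017. Without GM replicate 3, 1 rose, and with a spread per group 0 did (limma-voom adjusted p = 0.098 for Hmgcs1 and 0.23 for Mvd). Of 18 lipid droplet and PPARg genes 4 rose and 3 fell, and with a spread per group 1 rose and 1 fell. Dgat2, which makes triacylglycerol, had 11.5, 10.5 and 10.6 CPM with GM, against 6.42, 7.17 and 8.51 CPM in water (log2 0.57, edgeR adjusted p = 0.0053). The fatty acid receptor Cd36 (log2 0.28, edgeR adjusted p = 0.001) and the lysosomal lipase Lipa (log2 0.21, edgeR adjusted p = 0.00024) rose, and Gpnmb fell (log2 -0.18, edgeR adjusted p = 0.0029). The count that fell was 1 without any one of 4 libraries (water replicates 1 and 3, GM replicates 2 and 3).

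Lysosomal genes leaned lower, with 8 of 39 that fell and 1 that rose (4 that fell without water replicate 3, 5 without GM replicate 3, 5 that fell and 0 that rose with a spread per group). Ctsk, which encodes the collagen-cleaving protease cathepsin K, had 122, 120.1 and 114 CPM with GM, against 189, 180.4 and 200.4 CPM in water (log2 fold change -0.68, SE 0.05, edgeR adjusted p = 9.1e-13), and it held with a spread per group (limma-voom adjusted p = 6.2e-06). The glycosidase Glb1 had 145, 146 and 134 CPM with GM, against 174, 175 and 166 CPM in water (log2 -0.28, edgeR adjusted p = 3.4e-05), and Gusb fell too (log2 -0.25, edgeR adjusted p = 3.0e-05), while no V-ATPase subunit of the list passed. The CLEAR core CACGTG, which lysosomal promoters are known for, stood in 10 of the 29 windows found (34.5%), against 8.09% of all genes, and in 1 of the 6 windows of members that fell (16.7%). Of 20 autophagy genes, 3 rose, Sqstm1 among them, with 0 under a spread per group (limma-voom adjusted p = 0.23 for Sqstm1). In the endoplasmic reticulum list 6 of 24 fell and 0 rose, with Pdia4, a protein disulfide isomerase (log2 -0.38, edgeR adjusted p = 2.4e-07), ahead of the chaperone Hspa5 (log2 -0.15, edgeR adjusted p = 0.012). The count was 1 without GM replicate 3, 2 without water replicate 3 and 2 with a spread per group. Proteasome and heat shock genes went the other way, with 6 of 27 that rose, among them the core particle genes Psma7 (log2 0.23, edgeR adjusted p = 0.00067) and Psmb5 (log2 0.21, edgeR adjusted p = 0.0036). The count was 2 without water replicate 1, GM replicate 2 or GM replicate 3, and 1 with a spread per group.

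Of 37 tested ATF4 and amino acid genes, 2 rose (5.4%) and 4 fell (10.8%), against 4.15% and 4.46% of all genes. With a spread per group 0 rose and 3 fell (limma-voom adjusted p = 0.2 for Slc7a11 and 0.2 for Slc3a2, which rose in edgeR). Besides Phgdh, the amino acid transporter Slc38a2 fell to 79, 80.6 and 85.6 CPM with GM, against 119, 123 and 124 CPM in water (log2 -0.58, edgeR adjusted p = 1.1e-10). Shmt2, the mitochondrial serine hydroxymethyltransferase, fell by 0.42 on the log2 scale (edgeR adjusted p = 0.003). Slc7a11 and its partner chain Slc3a2 (log2 0.34, edgeR adjusted p = 6.2e-07) were the members that rose. Atf4 (-0.19) and Ddit3 (-0.15) did not pass. Of 29 tested glycolysis and HIF-1 genes, 5 fell and 1 rose, and the count that fell ran from 1 without GM replicate 3 to 10 without water replicate 2 or without GM replicate 1, and 2 with a spread per group. Hif1a, which encodes the oxygen-regulated factor, was the member that rose, at 233, 229 and 230.4 CPM with GM, against 174, 182 and 192 CPM in water (log2 0.34, edgeR adjusted p = 5.8e-07). Its known targets P4ha1 (-0.20) and Ero1a (-0.21) and the pyruvate kinase Pkm (-0.21) fell on the log2 scale (largest edgeR adjusted p = 0.0051). Gapdh, a member that did not pass, ran from 12.7 to 134 CPM within the 6 libraries, the groups overlapped, and its count is uncertain. Of 30 oxidative phosphorylation genes, 0 passed in edgeR, DESeq2 or limma-voom (4 at an unadjusted edgeR p below 0.05) and the median was 0.01; in the citrate cycle list 1 of 21 rose, pyruvate carboxylase, Pcx (log2 0.53, edgeR adjusted p = 0.00071).

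**Figure D4:**
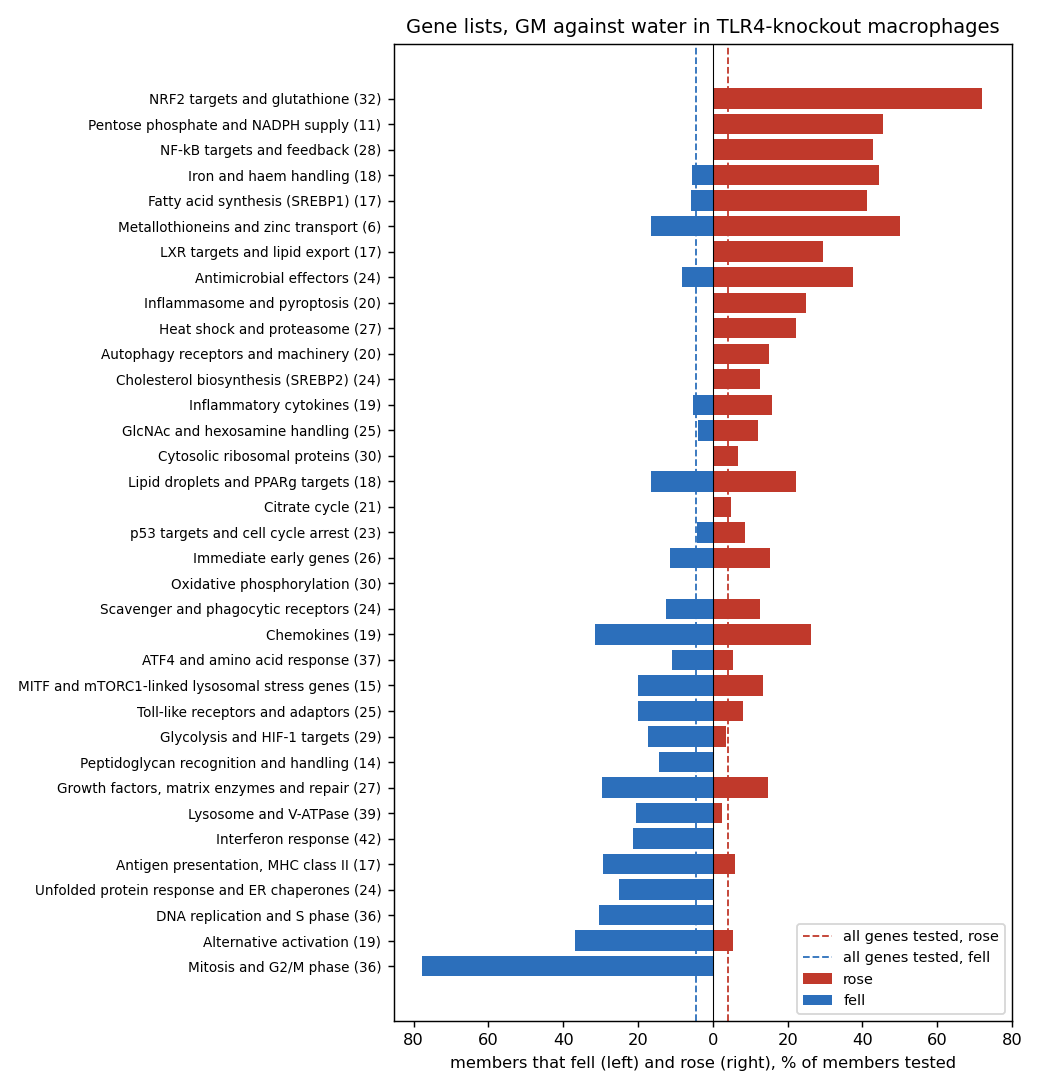
Share of the tested members of each gene list that rose (right of 0) or fell (left of 0) with GM in knockout macrophages, in percent; dashed lines mark the shares over all genes tested, 4.15% higher and 4.46% lower. NRF2 and glutathione genes reach furthest to the right among the response lists and mitosis genes furthest to the left.

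Genes of alternative activation, the state that interleukin-4 induces, leaned lower: 7 of 19 tested of 22 fell and 1 rose (2 fell with a spread per group). Mrc1, the mannose receptor, had 323, 330.2 and 311 CPM with GM, against 449.9, 428 and 426 CPM in water (log2 fold change -0.44, SE 0.04, edgeR adjusted p = 1.1e-09). The lectin gene Mgl2 fell (log2 -0.56, edgeR adjusted p = 0.00011), while Tgm2, a transglutaminase, rose (log2 0.44, edgeR adjusted p = 1.6e-05). Among 24 tested scavenger and phagocytic receptors of 27, 3 rose and 3 fell. Besides Marco, Olr1, a receptor for oxidised LDL, had 35.9, 42.8 and 41.5 CPM with GM, against 25.4, 28.9 and 29.6 CPM in water (log2 0.52, edgeR adjusted p = 1.5e-05). The collectin gene Colec12 (log2 -0.42, edgeR adjusted p = 0.00066) and the Fc receptor gene Fcgr3 (log2 -0.21, edgeR adjusted p = 0.00042) fell. Of 17 antigen presentation genes 5 fell and 1 rose, with 3 that fell without water replicate 1, GM replicate 2 or GM replicate 3 and 0 with a spread per group (limma-voom adjusted p = 0.18 for H2-Ob). H2-Ob, a chain of the H2-O modulator of peptide loading, changed most (log2 -0.99, edgeR adjusted p = 0.0029), ahead of the class II transactivator Ciita (log2 -0.28, edgeR adjusted p = 0.0024) and the invariant chain Cd74 (log2 -0.19, edgeR adjusted p = 0.0047).

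Secreted growth factors and matrix enzymes leaned lower as well, with 8 of 27 tested of 31 that fell and 4 that rose (4 and 1 with a spread per group, 5 that fell without GM replicate 2 or GM replicate 3). The collagenase gene Mmp13 had 38.6, 36.7 and 36.9 CPM with GM, against 65.7, 50.9 and 58 CPM in water (log2 -0.63, edgeR adjusted p = 9.4e-07). Spp1, osteopontin, had 2124, 2071 and 2106 CPM with GM, against 2647, 2540 and 2484 CPM in water (log2 -0.28, edgeR adjusted p = 3.2e-06). Serpinb2, a plasminogen activator inhibitor, had 86.2, 75.2 and 90.7 CPM with GM, against 108, 113 and 107 CPM in water (log2 -0.38, edgeR adjusted p = 2.0e-05). Thrombospondin 1, Thbs1, rose by 0.70 (edgeR adjusted p = 0.0001) and the protease gene Adam8 by 0.34 (edgeR adjusted p = 3.9e-05) on the log2 scale. Among 26 tested immediate early genes, 4 rose and 3 fell (1 and 2 with a spread per group, where Fos had a limma-voom adjusted p = 0.073). The AP-1 subunit gene Fos rose (log2 0.51, edgeR adjusted p = 0.00032) while Jun fell (log2 -0.33, edgeR adjusted p = 1.8e-06), and the phosphatase genes Dusp5 (log2 0.43, edgeR adjusted p = 0.0051) and Dusp6 (0.29 on the log2 scale) rose.

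Marker genes of other cells moved in part with the treatment. Sums of markers here cover the members tested only. The 11 tested of 14 neutrophil markers summed to 482, 431 and 513 CPM with GM, against 221, 329 and 288 CPM in water. S100a8 and S100a9 gave most of that difference, with 133.8, 120.9 and 147.3 CPM of S100a8 with GM, against 48.38, 77.77 and 62.59 CPM in water. Of the members tested, 0 passed in edgeR (5 higher at an unadjusted p below 0.05), while 3 rose in DESeq2 and 3 with a spread per group. Of the 11 tested, 10 had a positive log2 fold change, with a median of 0.60. In 7 the groups did not overlap, against 24.6% of all genes tested. Lcn2 had 161.8, 143.7 and 163.6 CPM with GM, against 91.17, 122.4 and 118 CPM in water. Ly6g had at most 0.0645 CPM in any library and Retnlg had 0. The 8 tested of 14 fibroblast markers summed to 22.6, 22.3 and 21.7 CPM with GM, against 31.8, 28.2 and 30.1 CPM in water. Thy1 (log2 -0.96, edgeR adjusted p = 0.0015) and Col1a2 (log2 -1.76, edgeR adjusted p = 0.0057) fell. Col1a2 was very low, at 0.479, 0.478 and 0.468 CPM with GM, against 2.55, 1.1 and 1.23 CPM in water. It did not pass with a spread per group (limma-voom adjusted p = 0.51) or in every fit without 1 library (largest edgeR adjusted p = 0.13). The 5 tested of 12 mast cell, basophil and erythroid markers summed to 30.5, 31.1 and 29.3 CPM with GM, against 45.7, 50.3 and 48.0 CPM in water. The mast cell and progenitor genes Kit (log2 -0.82, edgeR adjusted p = 1.6e-07) and Cpa3 (log2 -0.53, edgeR adjusted p = 0.0048) fell, and Hba-a2 and Hbb-bt were at 0. Monocyte markers summed to 2116, 1878 and 1765 CPM with GM, against 1648, 1804 and 1795 CPM in water. The 9 tested of 12 dendritic cell markers summed to 954.3, 1134 and 1101 CPM with GM, against 1013, 994.9 and 1031 CPM in water. Monocyte (12 tested), dendritic cell (9) and lymphocyte (6) markers gave 0 calls in edgeR, with 1, 2 and 0 members at an unadjusted p below 0.05; DESeq2 called 1 dendritic cell marker and limma-voom 0. Of the 20 macrophage identity genes 3 rose and 3 fell (0 and 1 with a spread per group), among them the complement gene C1qc at 48.1, 42 and 37.1 CPM with GM, against 77.2, 69.2 and 69 CPM in water (log2 -0.76, edgeR adjusted p = 1.8e-06; limma-voom adjusted p = 0.079). The part of such cells in the results above was not tested.

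The antioxidant and division changes differed in size from those with the other cell wall fragment. Against water, most mitosis genes fell with both fragments. GM and MDP were compared directly in knockout cells, where 2513 of 14195 genes passed (17.7%), 1189 higher (8.38%) and 1324 lower (9.33%) with GM. With an edgeR fit of all 18 libraries 242 passed, 67 higher and 175 lower. The doses are not stated, so the sizes compare the 2 treatments as given. Of the 32 NRF2 and glutathione genes, 19 were higher and 3 lower with GM than with MDP. Nqo1 had 47.9, 50.5 and 55 CPM with GM, against 28.4, 23.2 and 26.2 CPM with MDP (log2 0.98, SE 0.08, edgeR adjusted p = 1.4e-12). Gclm had 203, 219 and 209 CPM with GM, against 138, 135 and 134 CPM with MDP (log2 0.63, SE 0.05, edgeR adjusted p = 2.9e-13). Ferroportin showed the widest gap among iron genes: Slc40a1 had 116, 114 and 119 CPM with GM, against 37.5, 34.9 and 33.6 CPM with MDP (log2 1.72, SE 0.06, edgeR adjusted p = 9.9e-24). Mt2 (0.66), Treml4 (0.99), Marco (0.57), Spic (0.73) and Tns1 (0.96) were also higher with GM on the log2 scale (largest edgeR adjusted p = 0.002). Of these genes, Nqo1, Gclm, Mt2, Treml4 and Tns1 did not pass in the fit of all 18 libraries, whereas Slc40a1 passed in all 12 alternatives. Gclm did not pass with a spread per group either. Marco and Spic were not followed through the alternatives of this comparison.

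Inflammatory genes lay on the other side of that comparison. Il6 had 3.79, 3.18 and 3.38 CPM with GM, against 22.2, 29.3 and 30.0 CPM with MDP (log2 -2.97, SE 0.14, edgeR adjusted p = 1.9e-19). Il12b had 14.4, 18 and 20.3 CPM with GM, against 156, 251 and 225 CPM with MDP (log2 -3.58, SE 0.27, edgeR adjusted p = 0.0018). Nos2 had 12.2, 12.6 and 10.03 CPM with GM, against 91.4, 81 and 69.4 CPM with MDP (log2 -2.80, SE 0.11, edgeR adjusted p = 1.6e-10). Il1b was also lower with GM (log2 -1.52, SE 0.09, edgeR adjusted p = 3.0e-05), as were Cd14 (log2 -1.02, SE 0.05, edgeR adjusted p = 2.0e-17) and Dgat2 (log2 -1.06, SE 0.11, edgeR adjusted p = 4.9e-10). In these 6 genes every GM library lay below every MDP library. By list, 11 of 19 tested cytokine genes, 14 of 19 chemokines, 19 of 28 NF-kB genes, 32 of 42 interferon genes and 25 of 29 glycolysis genes were lower with GM, and 3, 0, 1, 0 and 0 were higher. Without GM replicate 1, all 42 interferon genes were lower with GM. Of the 36 mitosis genes 29 were higher and 0 lower with GM than with MDP (22 higher without GM replicate 1), as for Mki67 at 229.6, 222 and 211 CPM with GM, against 178, 175 and 189 CPM with MDP (log2 0.29, SE 0.05, edgeR adjusted p = 1.2e-05). Genes of lipid droplets (12 of 18 higher, 2 lower) and of iron and haem handling (11 of 18 higher, 1 lower) lay on the GM side.

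Both treatments were also set against the same 3 water libraries, so their values are given side by side without a test of likeness. Nqo1 differed by 0.87 with GM and -0.11 with MDP on the log2 scale, Gclm by 0.79 and 0.16, Slc40a1 by 0.59 and -1.14, and Mt2 by 0.93 and 0.27. Prdx1 differed by 0.67 with GM and 0.37 with MDP, Hmox1 by 0.64 and 0.34, and Marco by 1.45 and 0.87. Il6 differed by -0.02 with GM and 2.96 with MDP, Nos2 by -0.81 and 1.99, and Mki67 by -0.35 and -0.65. By list, 28 of the 36 mitosis genes fell with GM and 35 with MDP, with medians of -0.34 and -0.75 on the log2 scale. Of the 36 DNA replication genes 11 fell with GM and 28 with MDP, and 0 rose with either. Of the 32 NRF2 and glutathione genes 23 rose and 0 fell with GM, and 16 rose and 2 fell with MDP. Over all 14158 genes tested for MDP, 1475 rose and 1480 fell.

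The response to GM in knockout cells was then set against the response in wild-type cells, as the difference between the 2 log2 fold changes in 1 edgeR fit of the 12 GM and water libraries. Of 15117 genes, 144 differed (0.953%): 142 had a negative difference (0.939%), knockout response minus wild-type response, and 2 a positive one (0.0132%). The 2 genes were Tfrc (log2 difference 1.04, SE 0.19, edgeR adjusted p = 0.025) and Nit2, an amidase (log2 difference 0.74, SE 0.14, edgeR adjusted p = 0.033), named after their values were seen; each lost its call in 10 or more of the 17 alternatives. The count moved with single libraries: without wild-type water replicate 3, 515 genes differed (120 higher, 395 lower), and without 1 knockout library between 71 and 90 did. DESeq2 called 316, with 30 higher and 286 lower.

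Inflammatory genes gave wide differences. Il6 had 3.61, 3.04 and 3.21 CPM with GM and 3.7, 2.97 and 3.34 CPM with water in knockout cells, against 112, 55.5 and 136 CPM with GM and 0.552, 0.666 and 0.934 CPM with water in wild-type cells (log2 -7.15, SE 0.47, edgeR adjusted p = 5.4e-05). Il1b had 143, 128 and 134 CPM with GM and 74, 77.5 and 79.7 CPM with water in knockout cells, against 755, 401 and 924 CPM with GM and 7.07, 5.57 and 12 CPM with water in wild-type cells (log2 -5.59, SE 0.44, edgeR adjusted p = 0.00011). So Il1b rose in both genotypes, and its starting level was higher in every knockout water library than in every wild-type water library. Nos2 went in opposite directions, at 11.6, 12 and 9.53 CPM with GM and 19.9, 18.2 and 20.2 CPM with water in knockout cells, against 141, 72.1 and 178 CPM with GM and 2.61, 2.42 and 0.33 CPM with water in wild-type cells (log2 -7.00, SE 0.66, edgeR adjusted p = 0.00049). Il12b had a difference of -6.42, Serpinb2 of -2.61, Usp18 of -1.91, Tnf of -1.89, Nfkbia of -1.05 and Mefv of -1.02 on the log2 scale, with a largest edgeR adjusted p = 0.022. By list, 7 of 19 cytokines, 5 of 19 chemokines, 8 of 28 NF-kB genes, 14 of 42 interferon genes and 6 of 24 antimicrobial genes were among those lower in the difference, and 0 in each were higher. Without wild-type water replicate 3 the counts lower were 8, 7, 18, 23 and 9, and without knockout GM replicate 1 they were 6, 3, 5, 8 and 5.

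For the antioxidant genes the same test gave no calls: 0 of the 32 NRF2 and glutathione genes and 0 of the 36 mitosis genes passed in edgeR, DESeq2 or limma-voom. At an unadjusted edgeR p below 0.05 there were 2 and 0 of them, among 1183 of all 15117 genes. The wild-type spread limits what this shows. For Nqo1 the log2 fold change was 0.87 in knockout cells and 0.48 in wild-type cells, with a difference of log2 0.39, 95% interval -1.49 to 2.26, edgeR adjusted p = 1. For Prdx1 it was 0.67 in knockout cells and 0.31 in wild-type cells, with a difference of log2 0.36, 95% interval -0.80 to 1.51, edgeR adjusted p = 0.99. For Hmox1 it was 0.64 in knockout cells and 0.59 in wild-type cells, with a difference of log2 0.05, 95% interval -1.33 to 1.42, edgeR adjusted p = 1. These intervals include both 0 and the whole of the knockout response, so neither a shared nor a knockout-specific antioxidant response was detectable at this spread. Marco rose by 1.45 in knockout cells and by 2.61 in wild-type cells, with a difference of log2 -1.17, 95% interval -1.96 to -0.37, edgeR adjusted p = 0.3. The median difference was 0.14 over the NRF2 list with 27 of 32 positive, but -0.44 with 5 positive without wild-type water replicate 3. Without that library the difference was -0.76 for Nqo1, -0.23 for Prdx1 and -0.66 for Hmox1, and 0 of the 32 passed. Over the mitosis list the median log2 fold change was -0.34 in knockout cells and -0.72 in wild-type cells, where all 36 were negative and 0 passed. The median difference of that list was 0.33 with 33 of 36 positive, or 0.77 with 35 positive without wild-type water replicate 3. Mki67 differed by -0.35 in knockout cells and by -0.03 in wild-type cells, with a difference of log2 -0.33, 95% interval -1.18 to 0.53, edgeR adjusted p = 0.97.

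**Figure D5:**
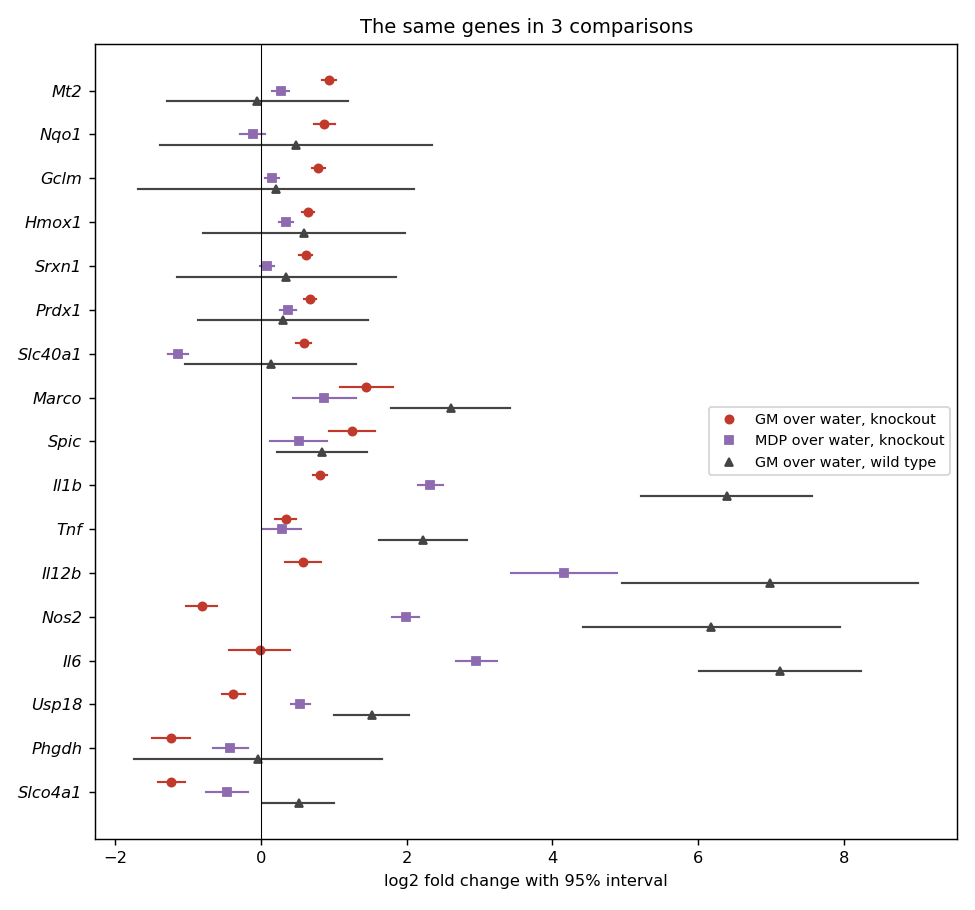
Log2 fold change with its 95% interval for 17 genes (rows), for GM over water in knockout cells (red), MDP over water in knockout cells (purple; it shares the water libraries with the red series) and GM over water in wild-type cells (black). The red intervals are narrow, the black ones wide; Il6, Il12b and Nos2 lie far to the right in wild-type cells, while Nqo1 and Slc40a1 are higher with GM than with MDP in knockout cells.

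Some long noncoding RNAs changed as well. Gm45774 (ENSMUSG00000110588, GRCm39 chromosome 8, 94897376 to 94900040, minus strand) had 55.2, 62 and 58 CPM with GM, against 27.5, 35 and 30.2 CPM in water (log2 fold change 0.92, SE 0.07, edgeR adjusted p = 3.8e-10). It overlaps Mt2 on the other strand, and since the use of strand in counting is not given, its count may hold Mt2 reads. Gm29233 had 33.9, 35.7 and 40.3 CPM with GM, against 22.9, 21.4 and 21.14 CPM in water (log2 0.75, edgeR adjusted p = 3.0e-08; limma-voom adjusted p = 0.054). AI506816 fell to 45, 54.4 and 47.2 CPM with GM, against 68.8, 72.1 and 66.6 CPM in water (log2 -0.50, edgeR adjusted p = 6.3e-07). In all 3 the GM and water libraries did not overlap. Against MDP, Gm45774 was higher with GM (log2 0.80, SE 0.07, edgeR adjusted p = 1.4e-11) and Gm29233 lower (log2 -0.77, SE 0.08, edgeR adjusted p = 4.1e-08). Ribosomal protein genes, as a background of highly expressed housekeeping genes, gave 2 of 30 that rose (6.67%, against 4.15% of all genes) and 0 that fell. Their median was 0.04 on the log2 scale, and 9 rose without water replicate 1 and 0 with a spread per group.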

How the data were processed

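RNA from TLR4-knockout and wild-type macrophages was sequenced from poly(A)-enriched directional libraries, 18 in all, of which the 6 knockout libraries with GM or water carry the main comparison. Per the submitters' processing notes, HISAT2 2.0.5, featureCounts 1.5.0-p3 and build GRCm39 were used, and the authors deposited the raw read count of 56748 genes in each library. The authors also deposited FPKM values, counts scaled to gene length and library size, which were used here only to compare levels between genes. The use of strand and the treatment of overlapping or repeated genes are not given in the sources used here, so counts of antisense, overlapping and near-identical genes are uncertain.

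The count tables were fitted with edgeR 4.0.16 under R 4.3.3: filterByExpr with a minimum count of 10, TMM scaling (factors 0.988 to 1.012), a robust quasi-likelihood fit with 1 mean per group, 2-sided F tests, and Benjamini-Hochberg adjusted p below 0.05 over all genes tested. GM against water, and GM against MDP, in knockout cells were each fitted on their 6 libraries (4 residual degrees of freedom), and the difference between genotypes on 12 (8 residual degrees of freedom). The fits were run on simulated data with planted changes of 1.5-fold or more, which does not bear on the smaller changes that make up most of the calls. Standard errors and 95% intervals belong to the fitted log2 fold change, and CPM values are on the TMM scale of the libraries compared. The 6 libraries differed by more than sampling noise within each group (chi-square per degree of freedom 3.30 to 5.53), so none was treated as a duplicate. DESeq2 1.42.0 and limma 3.58.1 served as alternatives. No gene set was tested: lists are described by counts and medians. The lists, the members named and the tests were chosen with earlier results of these data known. Genes were named by rule: the 12 largest rises and falls with a mean of at least 5 CPM and no overlap, the smallest p-values, up to 4 members per list and a fixed set around TLR4, NOD and NRF2; other list members, among them Gclc, Gsr, Txn1, Me1, Tfrc, Cp and G6pdx, were named for their role. Promoters are RefSeq windows (GRCm38.p6), and gene coordinates are those of the count table (GRCm39).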

Additional observations from a re-analysis of the deposited data

Results flagged for a closer look

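Among the 157 named genes, 10 differed in their response to GM between knockout and wild-type cells. The test was the edgeR interaction test over the 12 GM and water libraries. It called 144 of all 15117 genes tested (0.953%), so the 10 are only the named part of that result. The log2 difference, knockout response minus wild-type response, was -7.155 for Il6, -7.001 for Nos2, -6.421 for Il12b and -5.585 for Il1b. It was -2.61 for Serpinb2, -1.907 for Usp18, -1.892 for Tnf, -1.756 for Slco4a1, -1.054 for Nfkbia and -1.024 for Mefv. In Il1b, Il12b, Tnf, Nfkbia and Mefv, knockout cells responded upward like wild-type cells but by a smaller log2 fold change. In each of these genes every knockout water library started above every wild-type water library. The rise of Il12b in knockout cells did not pass with a spread per group (limma-voom adjusted p = 0.36). In Nos2, Serpinb2, Usp18 and Slco4a1 every knockout GM library lay below every knockout water library, and every wild-type GM library lay above every wild-type water library. Il6 did not respond detectably in knockout cells. Slco4a1 had 16.1, 17.7 and 22.1 CPM with GM and 43.6, 45.7 and 42.5 CPM with water in knockout cells, against 97.6, 125 and 80.6 CPM with GM and 74.5, 79.5 and 57.3 CPM with water in wild-type cells (log2 -1.76, SE 0.25, edgeR adjusted p = 0.0059). Serpinb2 had 82.3, 71.7 and 86.4 CPM with GM and 103, 108 and 103 CPM with water in knockout cells, against 288, 225 and 231 CPM with GM and 54.6, 44.6 and 59.7 CPM with water in wild-type cells. Mefv had 27.6, 25 and 24.6 CPM with GM and 16.4, 17.5 and 17.8 CPM with water in knockout cells, against 12.6, 14.3 and 10.2 CPM with GM and 4.01, 4.06 and 4.12 CPM with water in wild-type cells. Over 17 alternatives the call held in all of them for Il6, Il1b, Nos2, Serpinb2, Usp18, Tnf and Nfkbia, was lost in limma-voom for Il12b and Slco4a1 (adjusted p = 0.071 and 0.17), and held in 7 for Mefv.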

How the results depend on the processing

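The count for GM against water in knockout cells, 1217 genes, was 1213 with RLE factors (1212 shared), 1004 in DESeq2 (981 shared; 1646 genes had no adjusted p), 1320 with no low-count filter (1185 shared), and 833 to 1228 without 1 replicate, with 411 to 529 higher, 422 to 699 lower and 40 to 65 at 2-fold or more. An edgeR fit of all 18 libraries gave 3 calls, 0 higher and 3 lower, of which 2 were at 2-fold or more. Limma-voom with a spread per group gave 569, 248 higher and 321 lower. Testing against a minimum fold of 1.2 (glmTreat) gave 132, 67 higher and 65 lower, and an adjusted p below 0.01 gave 694, 332 higher and 362 lower. GM against MDP ranged from 1788 to 2407 without 1 replicate and gave 242 calls in the fit of all 18 libraries, 67 higher and 175 lower. The difference between genotypes, 144 genes, gave 316 in DESeq2, 30 higher and 286 lower. Without 1 replicate it ran from 71 to 515, with 0 to 120 higher and 71 to 395 lower, the upper ends without wild-type water replicate 3. Its 2 higher genes became 1 with no low-count filter, 1 with the replicate block and 1 in limma-voom.

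Same-numbered GM and water libraries did not deviate together (r = 0.014, -0.0016 and -0.025), and not every library correlated best with its own number, so the numbers were not taken to pair them. With the replicate block 1185 genes were called, 1137 of them shared.

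Of 157 named genes, RLE factors and no filter moved 0 across the threshold, the block 3, DESeq2 5, and leaving out 1 library 4 to 19; limma-voom lost 70 and the fit of all 18 libraries 149. The genes that reversed were uncalled throughout: without 1 replicate Tlr2 ran from -0.01361 to 0.04325, Myd88 from -0.1413 to 0.006522 and Il6 from -0.09751 to 0.06595 on the log2 scale. In the difference between genotypes, without 1 replicate Nqo1 ran from -0.7631 to 0.8564, Prdx1 from -0.2285 to 0.5903, Hmox1 from -0.661 to 0.3217 and Mki67 from -0.5671 to 0.0009767, uncalled throughout. Hmox1 was -0.004729 with the replicate block and -0.02381 in limma-voom. The alternatives for single genes and lists in GM against MDP and in the difference between genotypes were chosen after seeing the data; the cause of these shifts was not tested. Genes under the low-count filter were not tested, and a p that missed the threshold with 3 libraries a group does not show that levels were equal.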

Other observations

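A small list of genes linked to MITF and to lysosomal stress split by member rather than by list. Of 15 tested, 2 rose and 3 fell (1 and 1 with a spread per group). Hif1a and Sqstm1 rose, while Gpnmb, the folliculin gene Flcn (log2 -0.18, edgeR adjusted p = 0.028) and the lipid droplet gene Plin2 (log2 -0.14, edgeR adjusted p = 0.016) fell; Flcn was the one whose groups overlapped. Mitf itself differed by -0.01 on the log2 scale and Trem2 by -0.04, and neither passed.

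Of 8 tested osteoclast genes, 1 rose and 1 fell (0 and 1 with a spread per group). Ctsk fell, as given above, and Itgb3, which encodes the beta 3 integrin that osteoclasts use to hold bone, had 105, 134 and 124 CPM with GM, against 80.3, 90.0 and 91.5 CPM in water (log2 0.47, edgeR adjusted p = 0.02; limma-voom adjusted p = 0.43). Acp5, the tartrate-resistant phosphatase (log2 0.02, 95% interval -0.11 to 0.15, edgeR adjusted p = 0.91), and Nfatc1, the factor that drives osteoclast formation (log2 -0.05, 95% interval -0.17 to 0.08, edgeR adjusted p = 0.76), did not pass, and Calcr, the calcitonin receptor gene, was at 0 in all 6 libraries.

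Gapdh, often used to scale expression, had 14.3, 12.7 and 37.9 CPM with GM, against 109, 134 and 13.5 CPM in water, so the groups overlapped (log2 -1.98, 95% interval -4.69 to 0.72, edgeR adjusted p = 0.38). Its values were low and swung widely within each group. How reads from repeated genes were counted is not given, so the count of Gapdh is uncertain and its true level cannot be read from it.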
